A study of Mus musculus with 6 samples.

Results

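The potassium channel, sodium pump and magnesium transport genes of the distal convoluted tubule were described in mDCT15 cells, a mouse line the paper uses as a model of that segment. The genes were chosen by name: *Kcnj10* and *Kcnj16* for the basolateral potassium channel, *Atp1b1* and *Fxyd2* for the sodium pump, and *Trpm6*, *Trpm7* and *Cnnm2* for magnesium transport. Of these 7 genes, 6 had a value among the 20624 genes analysed, and *Fxyd2* was not analysed here. RNA came from 3 samples of *Pkd1-/-* mDCT15 cells, made by CRISPR-Cas9 editing, and from 3 samples of wild type mDCT15 cells. The paper describes culture of both in the same serum-containing medium. It does not state the medium or any treatment for the RNA samples in particular. The sample titles write *Pkd1-/-* while the genotype field calls these cells a knockdown, and neither says whether they are 1 clone.

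The value analysed for each gene was the authors' mean normalized count, a single mean over the 6 samples of both genotypes. No error comes with it, and how deeply each sample was sequenced is unknown. The genotypes were therefore not compared here, no test was made, and every level below describes the cells of both genotypes together. A pooled mean still sets a limit: with 3 samples in each genotype, the mean in either genotype cannot exceed 2 times the pooled mean. When the pooled means of 2 genes have a given ratio, the ratio of their means in at least 1 of the genotypes is as large or larger. The pooled means added up to 16746088, with a median of 104.5 per gene and a lowest value of 0.618. Among genes with a RefSeq promoter, the share with a value rose with its number of CG dinucleotides. It was 15.5% for 0 to 9, 65.3% for 10 to 19 and 84.8% for 20 or more. Counts below of listed genes with a value are to be read beside these shares.

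Cells of the distal convoluted tubule take up sodium chloride across the apical membrane and return sodium to the blood through the basolateral sodium pump. The pump consists of a catalytic alpha and a beta subunit, and proteins of the FXYD family adjust its activity. Potassium that enters through the pump leaves again through Kir4.1 and Kir5.1, the products of *Kcnj10* and *Kcnj16*, which assemble into 1 channel and set the membrane voltage. The same cells reabsorb magnesium through the apical channel TRPM6, and CNNM2 acts at the basolateral side. Loss of function of several of these genes in people causes salt or magnesium wasting.

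The segment named in the labels was checked against a list of 12 marker genes. Only 3 of them had a value, *Atp2b1*, *Atp2b4* and the member *Trpm6*, and *Atp2b1*, a plasma membrane calcium pump made by many cell types, held 2408 of their summed mean of 2463. The defining markers *Slc12a3* (the thiazide-sensitive sodium chloride cotransporter), *Pvalb* and *Calb1* had no value, and neither had *Emx1*, *Sall3*, *Tfap2b*, *Trpv5*, *Trpv6* and *Slc8a1*. Markers of the proximal tubule had values for 4 of 4 genes, with means of 11355 for *Aqp1*, 8826 for *Lrp2* (megalin), 169 for *Cubn* and 2.04 for *Slc34a1*. Markers of the thick ascending limb had values for 0 of 3 genes and those of intercalated cells for 0 of 4. Of the principal cell markers 2 of 4 had a value, *Aqp3* at 1.95 and *Scnn1g* at 0.618, the lowest of the table. *Epcam* had a mean of 115 and *Krt8* of 0.98, while *Cdh1* and *Krt18* had no value. Of the 12 markers, 1 thus had a mean of at least 100, 2 lay between 10 and 100 and 9 had no value. *Aqp1* and *Lrp2* of the proximal tubule had ranks 88 and 148 of all genes. These markers did not bear out the segment named in the labels, although a missing value does not show that a gene is silent. The genes below are therefore described as genes of these mDCT15 cells and not of that segment.

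The 6 genes lay on both sides of the median level. *Atp1b1*, *Trpm7*, *Cnnm2* and *Kcnj16* lay above the median of all genes, and *Kcnj10* and *Trpm6* lay below it. The place of *Kcnj16* and *Cnnm2* depended on the genes and the length used. *Kcnj16* lay below the median among genes whose mean was 10 or more (percentile 46.9), among protein-coding genes (47.8) and per kilobase of the median protein-coding transcript (43.4), and *Cnnm2* did so on the last of these scales (45.8). That scale also compares a smaller set, since genes without a protein-coding transcript have no such length. *Kcnj10* has the same length of 5.42 kb on each length scale, and went from percentile 34.4 with merged exons to 17.3 on that scale. *Kcnj16* had a mean 11.2 times that of *Kcnj10*, the next lower member.

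**Figure D1:**
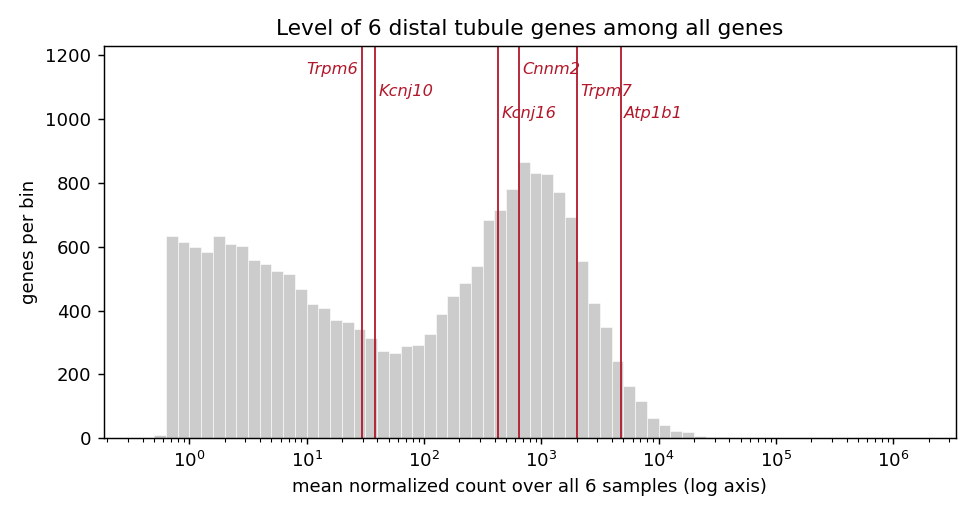
Number of genes (vertical axis) by mean normalized count over all 6 samples (horizontal log axis), with a red line at the value of each member that has one. *Trpm6* at 29.6 and *Kcnj10* at 38.3 sit below the median of 104.5, and *Atp1b1* at 4741 sits in the right tail.

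The genes of the potassium channel pair had unequal levels. *Kcnj16* (ENSMUSG00000051497) lies on the plus strand of chromosome 11 of GRCm39, from 110858843 to 110927617, and encodes Kir5.1, known mainly as a partner of other Kir subunits. Its mean normalized count was 428, at percentile 64.6 of all genes. *Kcnj10* (ENSMUSG00000044708), on the plus strand of chromosome 1 from 172168765 to 172201652, encodes Kir4.1, which can form a channel alone. Its mean was 38.3, at percentile 43.9, so that neither genotype can have had a mean above 76.6. Both genes have nearly the same merged exonic length, 5.49 kb for *Kcnj16* and 5.42 kb for *Kcnj10*. Per kilobase of merged exons, the level of *Kcnj16* was 78.0 and that of *Kcnj10* was 7.07, a ratio of 11.0. In at least 1 genotype the Kir5.1 transcript therefore exceeded the Kir4.1 transcript by this factor or more.

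Among the 15 Kir channel genes, 8 had a value, and 4 of these 8 had a mean of at least 10. Among all genes with a value, 66.5% reached that mean. *Kcnj16* held 66.0% of the summed level per kilobase of the family and *Kcnj10* 5.98%. Between them came *Kcnj4*, which encodes Kir2.3, at 25.5 per kilobase (mean 95.8). *Kcnj2*, which encodes the widely made Kir2.1, had 4.26 per kilobase (mean 23.3). The rest with a value had means of 7.49 (*Kcnj14*), 1.71 (*Kcnj13*), 0.946 (*Kcnj11*) and 0.749 (*Kcnj12*). *Kcnj1*, *Kcnj3*, *Kcnj5*, *Kcnj6*, *Kcnj8*, *Kcnj9* and *Kcnj15* had no value. *Kcnj1* encodes ROMK, the secretory potassium channel of the distal nephron, and *Kcnj15* encodes another partner of Kir5.1.

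*Kcnj2* is also the next coding gene with a value after *Kcnj16* on chromosome 11, 29.4 kb away, and its mean was lower than that of *Kcnj16* by a factor of 18.4. The coding gene before *Kcnj16* with a value, *Map2k6*, had a mean of 226 at a distance of 442 kb. For *Kcnj10*, the nearest coding genes with a value were *Igsf8* (mean 1289, 21.4 kb away) and *Pigm* (mean 1219, 2.46 kb away). *Kcnj9*, which had no value, lies nearer on the *Igsf8* side and ends at 172163568. The low level of *Kcnj10* was thus not shared by *Igsf8* and *Pigm*, and the level of *Kcnj16* exceeded that of *Map2k6* and *Kcnj2*. Other neighbours without a value were not examined.

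The sodium pump subunit *Atp1b1* had the highest mean of the members. *Atp1b1* (ENSMUSG00000026576, chromosome 1, minus strand, 164264678 to 164285957) encodes the beta 1 subunit, the usual beta subunit of kidney epithelium, which brings the alpha subunit to the plasma membrane. Its mean normalized count was 4741, rank 513 and percentile 97.5 of all genes, and it was 978 per kilobase of merged exons. *Atp1b3*, for the beta 3 subunit, had a mean of 1736 and 520.1 per kilobase, so that beta 1 exceeded beta 3 by 1.88 times. *Atp1b2*, a beta subunit best known from the nervous system, had a mean of 93.0 and 13.9 per kilobase. Beta 1 thus held 64.7%, beta 3 34.4% and beta 2 0.916% of the summed level of the beta subunits. Per kilobase, *Atp1b1* was 12.5 times as high as *Kcnj16*.

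Of the 7 FXYD genes, only *Fxyd5* had a value, with a mean of 38.4 and 8.73 per kilobase. *Fxyd5* encodes dysadherin, which also associates with the pump. *Fxyd2*, whose product is the gamma subunit found along the nephron, lies on chromosome 9 from 45310967 to 45322004 and has a longest coding sequence of 210 bases. It was not analysed here, and neither were *Fxyd1*, *Fxyd3*, *Fxyd4*, *Fxyd6* and *Fxyd7*.

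**Figure D2:**
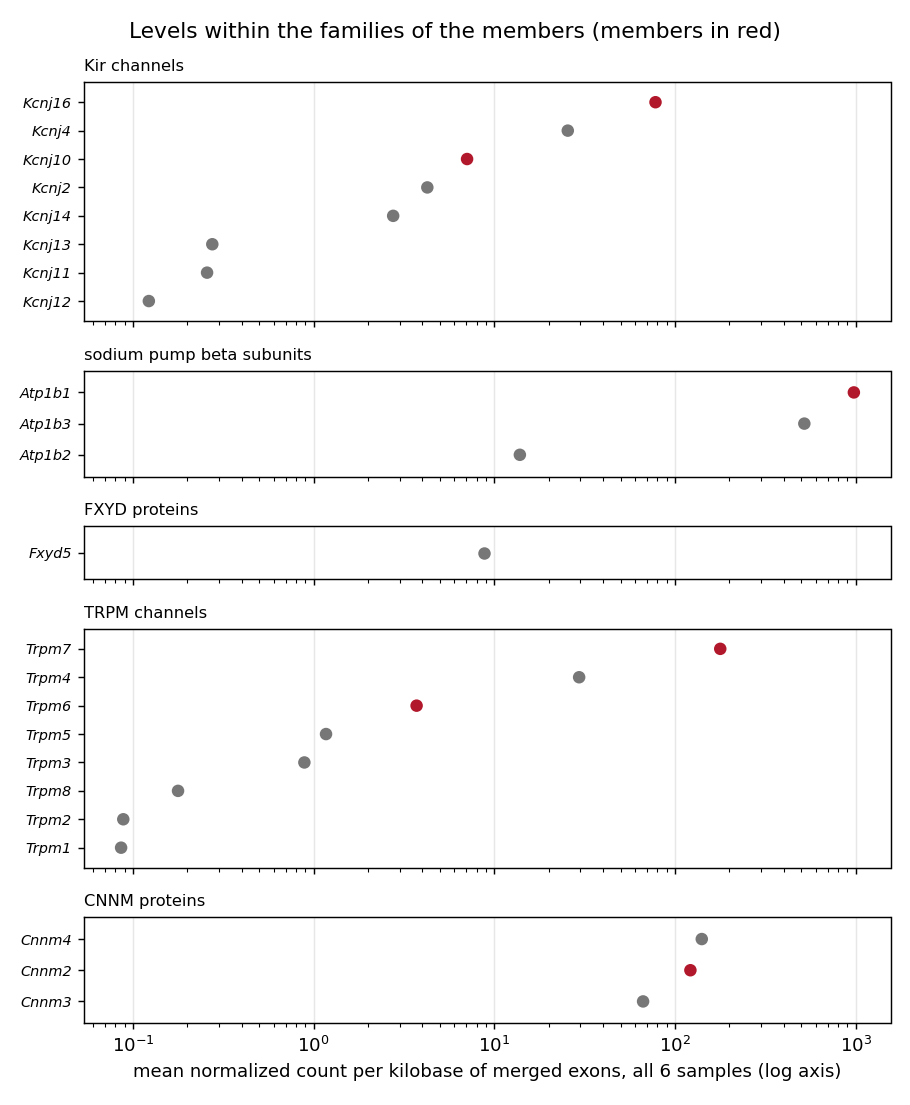
Mean normalized count per kilobase of merged exons over all 6 samples (horizontal log axis) for each gene with a value in the 5 families of the members, with members in red. *Kcnj16*, *Atp1b1* and *Trpm7* lead their families at 78.0, 978 and 178 per kilobase, *Cnnm2* at 122 lies next to *Cnnm4* at 141, and *Kcnj10* at 7.07 and *Trpm6* at 3.72 each have the place 3 in theirs.

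The gap between the magnesium channel genes was wider than that of the potassium pair. *Trpm7* (ENSMUSG00000027365, chromosome 2, minus strand, 126633480 to 126718182) encodes a channel joined to a kinase that most cell types make. Its mean was 2026, at percentile 90.4, and 178 per kilobase. *Trpm6* (ENSMUSG00000024727, plus strand of chromosome 19 from 18727089 to 18869875) encodes the related channel kinase of the distal convoluted tubule and the intestine. Its mean was 29.6, at percentile 42.3, and 3.72 per kilobase. Neither genotype can have had a mean of *Trpm6* above 59.3. *Trpm7* exceeded *Trpm6* by 47.9 times per kilobase. The transcripts are long, with coding sequences of 5.60 kb for *Trpm7* and 6.08 kb for *Trpm6*.

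All 8 TRPM genes had a value, and 4 had a mean of at least 10, beside 66.5% of all genes with a value. *Trpm7* held 83.3% of the summed level per kilobase of the family, *Trpm4*, for a calcium-activated channel, 13.8%, and *Trpm6* 1.74%. With the median length of the protein-coding transcripts, *Trpm7* held 69.8% and *Trpm4* 24.5%, and their ratio fell from 6.04 to 2.85. *Trpm4* had a mean of 474 and *Trpm3* of 21.9. The means of *Trpm5* (7.49), *Trpm1* (1.52), *Trpm2* (1.14) and *Trpm8* (0.841) were under 10. The place of *Trpm6* depended on the length used. It had place 3 of 8 per kilobase of merged exons, 3.17 times over *Trpm5*, but place 4 when the median length of the protein-coding transcripts was taken.

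*Cnnm2* (ENSMUSG00000064105) lies on the plus strand of chromosome 19 from 46749986 to 46868631 and encodes a membrane protein that is required for normal magnesium balance. Its mean was 643, at percentile 71.1, and 122 per kilobase of merged exons. The 3 genes of the family with a value were more even than the Kir and TRPM genes with one. *Cnnm4* had a mean of 680 (141 per kilobase) and *Cnnm3* of 506 (66.6 per kilobase). *Cnnm4* exceeded *Cnnm2* by 1.16 times and *Cnnm2* exceeded *Cnnm3* by 1.83 times. Without replicate values it cannot be said whether these neighbours differ by more than the spread between samples. *Cnnm1* had no value. *Cnnm2* was 32.8 times as high as *Trpm6* per kilobase of merged exons, 21.7 times without division by length and 18.6 times with the median length of the protein-coding transcripts.

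Of 13 other genes of magnesium transport, 13 had a value, 12 a mean of at least 10 and 10 a mean of 100 or more. Their median was 736. Having a value is common, at 84.8% of genes with 20 or more CG dinucleotides in the promoter. The promoters of these 13 genes were not examined. Of all genes with a value, which include many that are not protein-coding, 66.5% reached 10, 50.3% reached 100 and the median was 104.5. Among protein-coding genes alone, 28.9% lay below the mean of 125 of *Slc41a3* and 61.0% lay below 736. The highest were *Ptp4a2* (5220), whose phosphatase product binds CNNM proteins, *Magt1* (4936) and *Mrs2* (1486), which encodes the magnesium channel of the inner mitochondrial membrane. *Slc41a1*, for a sodium and magnesium exchanger, had a mean of 823 and its relative *Slc41a3* of 125. Genes known to regulate magnesium reabsorption in this segment had a value in 6 of 7 cases. *Rack1* (10602), *Egfr* (5198) and *Phb2* (2564) were the highest, and *Rack1* and *Phb2* encode proteins that bind TRPM6 and lower its activity. *Pcbd1*, for a cofactor of transcription in tubular epithelium, had a mean of 807. *Egf*, the hormone that stimulates TRPM6, had a mean of 48.3, and *Kcna1* had no value.

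The channel genes around the potassium pair were uneven. The 5 genes listed for chloride channels and basolateral partners had a value each. *Clcn5* (4625) and *Clcn3* (2523), which encode exchangers of endosomes, and *Clcn2* (279.9) were the highest. *Bsnd*, for the barttin subunit of the basolateral chloride channels, had a mean of 2.02, and *Casr*, for the calcium-sensing receptor, had one of 0.779. Of 6 genes listed for other potassium channels and their subunits, 4 had a value, *Kcnk1* (172), *Kcnmb4* (34.6), *Kcnk5* (20.01) and *Kcnma1* (16.3). *Kcnj1* and *Kcna1* had none.

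**Figure D3:**
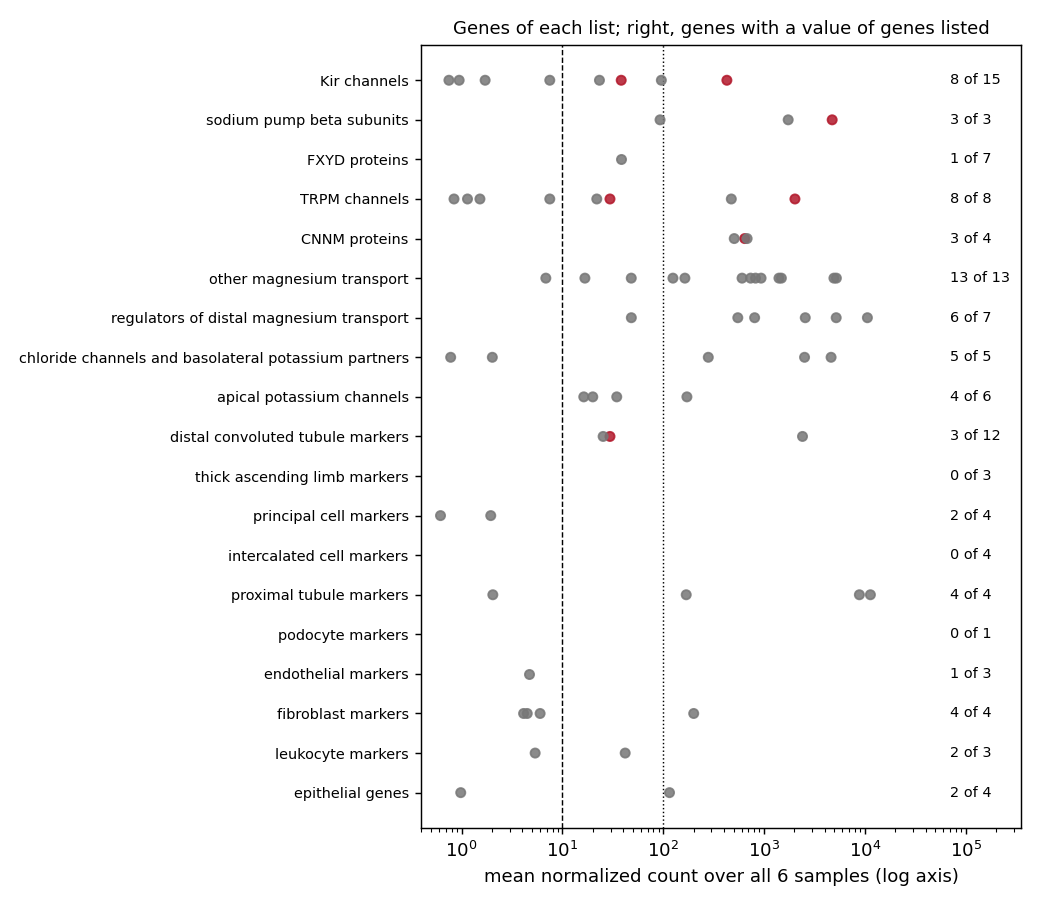
Mean normalized count over all 6 samples (horizontal log axis) for each gene with a value in the hand-written lists (rows), with members in red, a dashed line at 10 and a dotted line at 100. The numbers at the right give the genes with a value of those listed, such as 13 of 13 for other magnesium transport and 3 of 12 for the distal convoluted tubule markers. The row titled apical potassium channels also holds channels and subunits whose side of the membrane was not examined.

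The promoters of the members were set beside their levels, since the number of CG dinucleotides at a start site separates broadly used from restricted promoters. RefSeq promoters of 300 bases on GRCm38.p6, from 250 bases before to 50 after the start, were found for 6 members, with 9 starts in all, and *Fxyd2* had none. The 100 bases before the start are shown for the members with the most CG, *Trpm7* and *Atp1b1*, and with the fewest, *Trpm6* and *Kcnj16*, with every CG in capitals. For *Kcnj16* it is the most upstream of 4 starts.

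*Trpm7*, chr2:126876262-126876361, minus strand: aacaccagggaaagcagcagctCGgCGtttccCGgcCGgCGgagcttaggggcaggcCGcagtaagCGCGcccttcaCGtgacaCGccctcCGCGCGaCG
*Trpm6*, chr19:18749630-18749729, plus strand: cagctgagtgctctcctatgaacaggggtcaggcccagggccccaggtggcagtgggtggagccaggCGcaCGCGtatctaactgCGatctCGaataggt
*Atp1b1*, chr1:164458356-164458455, minus strand: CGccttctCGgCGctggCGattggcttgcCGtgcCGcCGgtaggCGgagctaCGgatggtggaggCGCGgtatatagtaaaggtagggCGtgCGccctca
*Kcnj16*, chr11:110967933-110968032, plus strand: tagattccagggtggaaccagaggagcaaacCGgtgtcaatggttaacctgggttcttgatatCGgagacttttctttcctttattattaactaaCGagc

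Over the 300 bases, the *Trpm7* promoter held 35 CG and that of *Atp1b1* 31, at percentiles 93.0 and 89.4 of the 32851 promoters, whose median was 7. *Kcnj10* and *Cnnm2* held 21 each. The promoter of *Trpm6* held 9, and the 4 starts of *Kcnj16* held 3, 8, 5 and 1. Of the 14637 genes with at most 9 CG, taking the start with the most, 15.5% had a value in these cells, with a median of 9.55, and of the 7772 genes with 20 or more, 84.8% had one, with a median of 685. *Kcnj16* lay at percentile 85.6 and *Trpm6* at percentile 62.1 of the genes with few CG that had a value. *Kcnj10* lay at percentile 13.8 of the genes with many. These counts describe the reference sequence, and no mark or binding at these sites was measured.

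**Figure D4:**
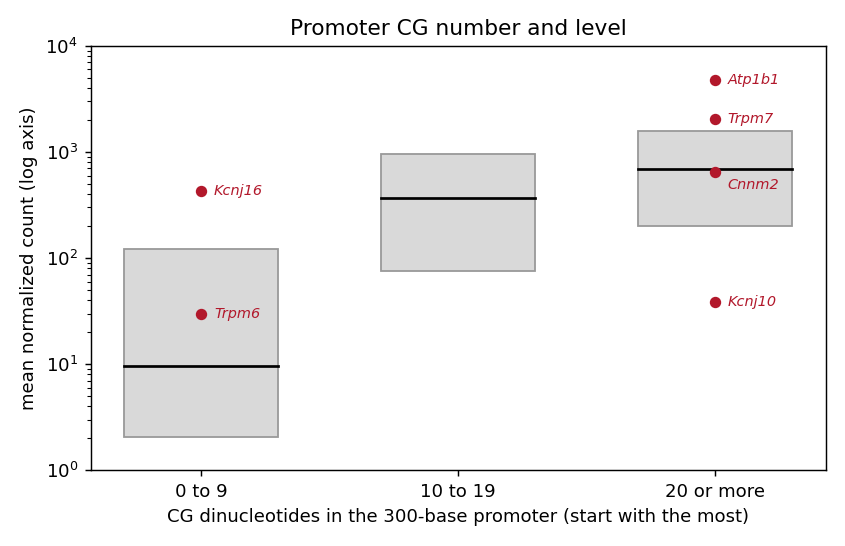
Mean normalized count over all 6 samples (vertical log axis) by the number of CG dinucleotides in the 300-base promoter (horizontal axis, 3 classes). Grey boxes span the lower to the upper quartile of the genes with a value, with a black line at the median, and red points are members: *Kcnj16* at 428 lies above the box of its class and *Kcnj10* at 38.3 below that of its own.

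Reads shared with other genes could touch some of these levels. Exons of other genes on the opposite strand covered 18.1% of the exonic bases of *Atp1b1* in GENCODE, those of *Nme7* among them, and 1.55% of *Kcnj10*. On the same strand, 3.40% of the exonic bases of *Trpm7* were shared. *Kcnj16* and *Trpm6* shared none with an annotated gene. The part of such reads in the levels was not tested.

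**Figure D5:**
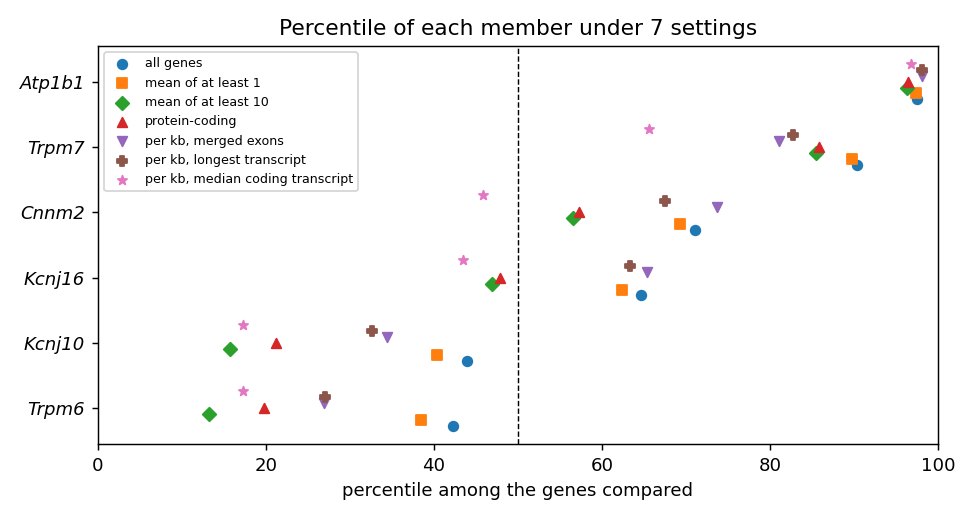
Percentile of each member (rows) among the genes compared (horizontal axis) under 7 choices of genes and of length, with a dashed line at 50. *Kcnj10* and *Trpm6* stay below 50 and *Atp1b1* and *Trpm7* above it under the 7 choices, while *Kcnj16* and *Cnnm2* cross it.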

How the data were processed

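Total RNA of 3 *Pkd1-/-* and 3 wild type mDCT15 samples was sequenced after ribosomal RNA depletion. According to their notes, the authors trimmed reads with Trim Galore 0.4.5, mapped them with STAR 2.7.5a to GRCm39, counted them per gene with HTSeq 0.11.0 under default parameters and normalized them with DESeq2 1.22.0 in R 3.5.3. The authors deposited for each gene 1 mean of the counts of all samples after division by size factors, a normalized signal. The deposited table also holds the authors' own comparison of the genotypes (log2 fold change, its standard error, statistic, p-value and adjusted p-value), which was not used. Sample-by-sample values were not analysed here, and the count model planned for them was not run, with no depth or spread given. 0 columns of sample values were left unmatched.

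Levels were ranked among the 20624 genes and divided by lengths from GENCODE M39 on GRCm39, in which 20122 identifiers (97.6%) were found. The authors used Ensembl release 105 on the same build, so gene models may differ. Main lengths were merged exons. For a symbol with several identifiers the highest mean was kept. The members and lists were chosen with earlier results of these data known. Named were the members, their families and, of each other list, the 3 highest and the defining genes. Neighbouring genes, overlapping genes and the remaining marker genes were named after their values were seen. Some genes of the planned lists are not reported here. Interval and ranking functions were tested on simulated data. Python 3.11.15, numpy 2.4.6, pandas 2.3.3 and matplotlib 3.10.9 were used.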

Additional observations from a re-analysis of the deposited data

How the results depend on the processing

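No paired analysis was possible because only 1 mean over all samples was analysed for each gene, and the planned count models, filters and leaving out of samples were not run for the same reason. Of the 6 members with a value, 4 lay above the median level. This number was 3 among protein-coding genes and among genes whose mean was 10 or more, and 2 per kilobase of the median protein-coding transcript, where *Kcnj16* and *Cnnm2* fell below the median. The last of these settings changes the genes compared as well as the length, since genes without a protein-coding transcript drop out. A member led 3 of the 5 families under each of the 4 scales, which include no division by length. No member could lead the FXYD family, since *Fxyd2* had no value. Of 48 alternative values for 16 ratios between genes, 40 were within 1.5 times of the value per kilobase of merged exons and 7 were further away with the same direction. The ratio of *Trpm6* to *Trpm5* turned from 3.17 to 0.685 with the median length of the protein-coding transcripts. It was 2.41 with the longest transcript and 3.95 without division by length. The median length used for *Trpm5* was 0.726 kb, shorter than its longest coding sequence of 3.47 kb, and that for *Trpm6* was 4.19 kb against 6.08 kb. The ratio of *Kcnj16* to *Kcnj10* ran from 11.0 to 16.5, and that of *Trpm7* to *Trpm6* from 40.3 to 68.4. Of the other 100 listed genes, 62 had a value, 42 a mean of at least 10, 56 of at least 1 and 29 of at least 100. Levels near the lowest mean of 0.618 rest on few reads, and a missing value does not show that a gene is silent.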

Other observations

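Markers of cells outside the tubule were low, with single exceptions. Among fibroblast markers, *Pdgfra*, *Pdgfrb* and *Dcn* had means of 4.12, 4.48 and 6.01, and *Col1a1* had 201. *Pecam1* of endothelium had a mean of 4.68, and *Kdr* and *Cdh5* had no value. Of the leukocyte markers, *Ptprc* had a mean of 5.36 and *Cd68*, a lysosomal protein that other cells also make, 41.9, and *Adgre1* had none. The podocyte marker *Nphs1* had no value.

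The paper's methods name a minimum of 5 counts per sample for each gene. The lowest mean in the table corresponds to a sum of 3.71 normalized counts over the 6 samples, and 5385 genes had a mean under 5. A minimum applied in every sample would not leave such means.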
